A study of Homo sapiens with 15 samples.

Results

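Transcript levels of 7 metallothionein genes (MT1E, MT1F, MT1G, MT1H, MT1M, MT1X and MT2A) were taken from Affymetrix arrays of MCF-10A cells, an established, immortalized and non-tumorigenic human mammary epithelial line. The genes were chosen by symbol, among 11963 genes represented on the arrays, and each was read from whichever of its probe sets had the highest mean over the 15 arrays. In the knockdown arm, cells carried shDBD, a short hairpin RNA against the DNA-binding domain found in all isoforms of the transcription factor p63 (2 arrays), shTA, a hairpin against the p63 isoforms with the transactivation domain (2 arrays), or the empty shRNA vector (2 arrays). In the overexpression arm, cells carried ΔNp63α, an isoform that lacks the N-terminal transactivation domain (3 arrays), TAp63γ, an isoform that has it (3 arrays), or the empty vector (3 arrays). RNA was taken 48 hours after infection with a retrovirus or an adenovirus, and the labels do not give the virus of each arm. All groups are of this 1 cell line, and the labels call the replicates biological without saying whether they were separate infections, so p-values cover only the scatter among these arrays, which may be technical. The transcript of the targeted or introduced gene was not analysed here. The comparisons address how metallothionein transcripts differ when p63 of any isoform, or of the TA isoforms, is lowered or when 1 isoform is raised.

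Metallothioneins are small proteins built largely of cysteine that bind zinc, copper and cadmium through their sulfur atoms, buffer free zinc and take up reactive oxygen. Their human genes lie in a cluster on chromosome 16. They are switched on by the zinc-sensing transcription factor MTF1, which binds short metal response elements in their promoters, and also respond to glucocorticoids and to oxidative stress. In breast and skin epithelium they are known from basal, dividing cells and from some carcinomas.

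Levels are log2 expression values, on which a difference of 1 is a 2-fold change. Array medians were 7.189 to 7.213 in the knockdown arm and 6.951 to 6.983 in the overexpression arm, so levels were compared within an arm only. All 7 measured basal epithelial markers lay above the 20th percentile of the arrays in every group. Below it, depending on the group, were 1 or 2 of 8 luminal and 2 of 8 fibroblast markers. The same held for 1 or 2 of 7 immune and 2 to 4 of 8 endothelial and adipocyte markers. The rest of each list was not below it. Those below it in every group were KRT19 (luminal), COL3A1 and LUM (fibroblast), LYZ (immune), and CDH5 and ADIPOQ (endothelial and adipocyte).

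Of the 7 genes, 3 matched the RefSeq promoter table (GRCh38.p14) by symbol, and 4 (MT1E, MT1F, MT1G and MT1M) did not. The 3 promoters are shown because they were the ones matched and because metal response elements are the family's best-known control sequence. These 3 transcripts fell with shDBD and rose with ΔNp63α, but so did MT1E, MT1F and MT1G, whose promoters were not matched. Each run below is the 250 bases before the annotated transcription start on the plus strand, from 5′ to 3′. Capitals mark matches, on either strand, to the metal response element, searched as TGCACNC and TGCGCNC, and, on the gene's strand, to the TATA box TATAAA.
MT2A, chr16:56608334-56608583: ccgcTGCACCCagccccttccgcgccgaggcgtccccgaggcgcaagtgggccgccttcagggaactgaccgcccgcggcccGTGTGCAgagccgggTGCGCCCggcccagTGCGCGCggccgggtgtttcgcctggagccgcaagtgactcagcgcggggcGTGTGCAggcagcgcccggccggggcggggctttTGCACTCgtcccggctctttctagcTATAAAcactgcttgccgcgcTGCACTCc
MT1X, chr16:56682220-56682469: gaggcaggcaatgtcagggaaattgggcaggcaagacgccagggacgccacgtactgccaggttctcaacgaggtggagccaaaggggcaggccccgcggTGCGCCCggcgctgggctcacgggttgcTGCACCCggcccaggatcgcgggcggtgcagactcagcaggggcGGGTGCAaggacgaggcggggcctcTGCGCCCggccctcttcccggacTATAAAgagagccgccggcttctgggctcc
MT1H, chr16:56669564-56669813: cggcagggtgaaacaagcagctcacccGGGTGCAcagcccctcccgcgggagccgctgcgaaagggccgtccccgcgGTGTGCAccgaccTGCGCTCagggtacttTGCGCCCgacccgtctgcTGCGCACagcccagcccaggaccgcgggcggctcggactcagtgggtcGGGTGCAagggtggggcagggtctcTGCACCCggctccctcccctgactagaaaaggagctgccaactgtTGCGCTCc
The metal response element matched at 7 places in the MT2A promoter, 4 in MT1X and 8 in MT1H, and no matches overlapped. Of 35116 promoters searched in the same way, 24.8% held at least 1 such stretch, 0.208% at least 4 and 0.0342% at least 6. A match at bases -53 to -47 stood in both MT1X and MT1H, and one in MT2A lay at -54 to -48. TATAAA began at base -29 in MT2A and at -30 in MT1X and was not among the letters of the MT1H window, against 6.8% of all promoters that held it. The GC content was 73.2% in MT2A, 70.0% in MT1X and 70.4% in MT1H, and the median promoter had 58.0%. These are matches of letters, and binding was not measured.

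**Figure D1:**
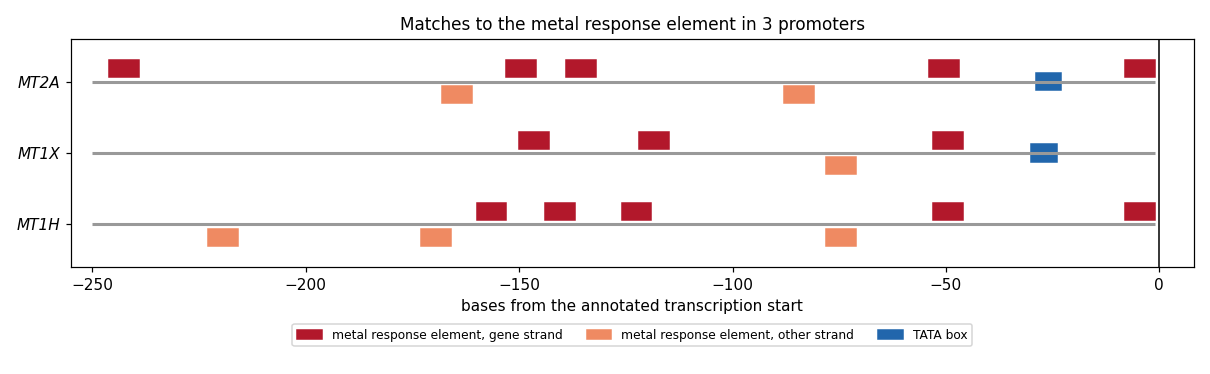
Matches to the metal response element on the gene's strand (dark red, above the line) and the other strand (orange, below) and to the TATA box (blue) along the promoters of MT2A, MT1X and MT1H; the x axis gives bases before the annotated start. The promoters hold 7, 4 and 8 metal response element matches, and each has one about 50 bases before the start, beginning at -53 or -54.

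With shDBD, 6 of the 7 genes fell, and the seventh, MT1M, did not pass (6 lower and 0 higher; of all genes 10.2% were called lower and 11.1% higher). A gene was called when its limma p-value, adjusted by Benjamini-Hochberg over all 11963 genes, was under 0.05. The median log2 fold change of the 7 was -0.574, and that of all genes was 0.000431. MT1F, a metal-binding isoform, had log2 levels of 12.63 and 12.60 with shDBD, against 13.49 and 13.52 with the shRNA vector. The arrays of both groups were far apart relative to their spread, and the change was -0.89 ± 0.055 (SE, n = 2 per group, a 1.855-fold fall, adjusted p = 2.5e-08). Of all genes, 3.93% had a larger change in either direction.

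The other 5 called genes fell by similar amounts. MT1X, another zinc-binding isoform, had levels of 13.37 and 13.38 with shDBD and 13.95 and 13.99 with the vector (-0.60 ± 0.054, adjusted p = 1.11e-06). MT1H had 13.22 and 13.18 with shDBD and 13.80 and 13.75 with the vector (-0.58 ± 0.053). MT1E had 13.55 and 13.49 with shDBD and 14.12 and 14.07 with the vector (-0.57 ± 0.054). In each of these genes both shDBD arrays lay below both vector arrays. MT2A, the isoform usually most abundant in human cells, had 14.22 and 14.21 with shDBD against 14.69 and 14.68 with the vector (-0.46 ± 0.043, adjusted p = 1.22e-06). MT1G, a further isoform, had the widest spread of the called genes, with 12.66 and 12.40 for shDBD and 13.07 and 13.04 for the vector (-0.52 ± 0.080, adjusted p = 1.89e-04), and its change was between -0.65 and -0.40 when single arrays were left out.

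MT1M had 4.49 and 4.59 with shDBD and 4.71 and 4.76 with the vector. These groups did not overlap either, but the change did not pass (-0.20 ± 0.079, adjusted p = 0.0882). All 6 knockdown arrays had MT1M below their 20th percentile, so it is not shown to be above background there. With MT1M included, the arrays of all 7 genes lay lower with shDBD without overlap, as did those of 29.9% of all genes.

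Other measures moved with shDBD as well, and 10.2% of all genes were called lower and 11.1% higher. Of 7 basal markers, 5 fell and 0 rose, and the summed log2 level of the list was 78.71 to 78.75 with shDBD against 84.48 to 85.02 with the vector. Of 8 luminal markers, 2 rose and 0 fell (summed 67.48 to 68.11 with shDBD and 65.24 to 65.48 with the vector). Of 7 immune markers, 2 rose (summed 48.93 to 49.0 and 46.98 to 47.29), of 8 endothelial and adipocyte markers, 2 rose (48.54 to 48.59 and 47.52 to 48.4), and of 8 fibroblast markers, 1 rose (54.35 to 54.97 and 52.17 to 52.37). The difference between the 3′ and 5′ actin control probe sets, a sign of RNA integrity, averaged 0.0669 ± 0.0262 on the shDBD arrays and -0.0868 ± 0.0098 on the vector arrays (SD, n = 2 each). The part of these measures in the metallothionein changes was not tested. In bulk RNA, fewer cells of a type and less RNA per cell cannot be told apart.

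**Figure D2:**
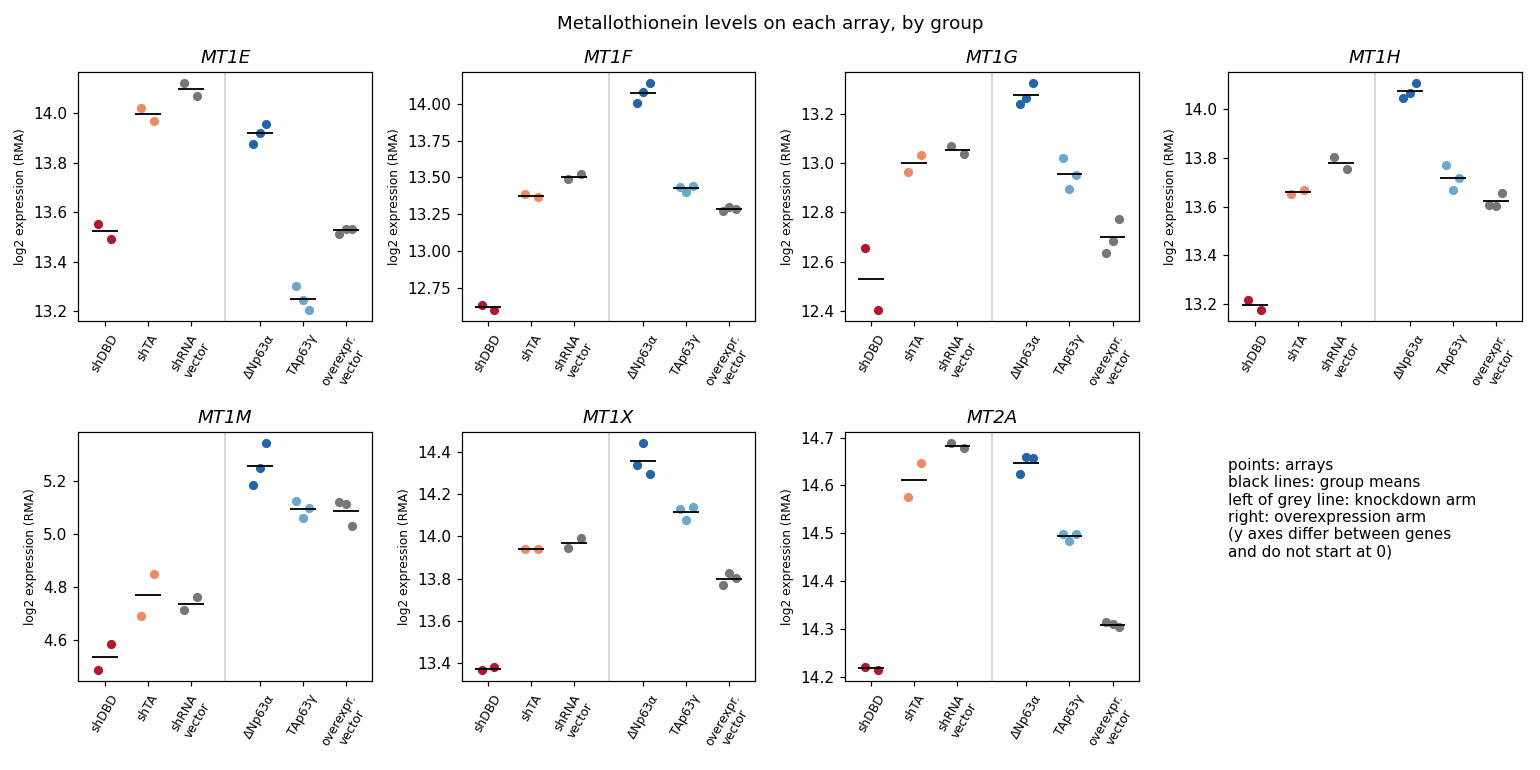
Log2 expression of each metallothionein (1 panel per gene, y axes differ and do not start at 0) on every array, with black lines for group means; the knockdown arm is left and the overexpression arm right of the grey line. For MT1F the shDBD arrays lie at 12.60 and 12.63, below the others of their arm, and the ΔNp63α arrays at 14.01 to 14.14, above the others of theirs.

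With shTA, 0 of the 7 genes were called (2.29% of all genes, 274, were). Over all genes that number was 87 without shTA replicate 2, 131 without shTA replicate 1, 90 and 95 without either vector array, and 472 without ΔNp63α replicate 3, and 0 of the 7 were called in each case. At an unadjusted p under 0.05, 2 of the 7 passed, MT1F and MT1H. MT1F had 13.39 and 13.36 with shTA against 13.49 and 13.52 with the vector (-0.13 ± 0.055, 95% interval -0.25 to -0.01, adjusted p = 0.305). MT1H had 13.65 and 13.67 with shTA against 13.80 and 13.75 with the vector (-0.12 ± 0.053, interval -0.23 to -0.01, adjusted p = 0.346). In both genes the shTA arrays lay below the vector arrays by a small margin.

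The remaining genes differed less from the vector. The level of MT2A was 14.57 and 14.65 with shTA and 14.69 and 14.68 with the vector (-0.07 ± 0.043, interval -0.16 to 0.02). MT1X, at 13.94 on both shTA arrays and 13.95 and 13.99 on the vector arrays, had an interval of -0.15 to 0.09. The fitted difference was -0.10 for MT1E (interval -0.22 to 0.01), -0.05 for MT1G (-0.22 to 0.12) and 0.03 for MT1M (-0.14 to 0.20). For 6 of the 7 the arrays lay lower with shTA without overlap, and 26.5% of all genes did the same. For the probe sets used, the intervals allow falls of at most 0.25 on the log2 scale. A second, dimmer probe set of MT1F (213629_x_at) had 10.55 and 10.50 with shTA and 10.73 and 10.75 with the vector and allows a larger fall (-0.22, interval -0.44 to 0.01, adjusted p = 0.435). Of the basal markers 1 of 7 fell with shTA (summed 83.61 to 84.27, against 84.48 to 85.02 with the vector). Of 8 luminal markers 1 rose and 1 fell, and of 8 fibroblast markers 1 rose. No immune, endothelial or adipocyte marker was called, beside 2.29% of all genes. The actin control measure averaged 0.1017 ± 0.1399 on the shTA arrays and -0.0868 ± 0.0098 on those of the vector (SD, n = 2 each). The part of the markers and of the actin measure was not tested.

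Set directly against shTA, shDBD gave lower levels of 6 of the 7 metallothioneins (9.23% of all genes were called lower, 9.14% higher). MT1F differed by -0.76 ± 0.055 (adjusted p = 1.66e-07) and MT1X by -0.57 ± 0.054 (adjusted p = 2.69e-06). MT1E, MT1G and MT1H differed by -0.47, -0.47 and -0.46, and MT2A by -0.39 ± 0.043. With the mean of both its probe sets, MT1G did not pass (-0.17, adjusted p = 0.272). MT1M had 4.49 and 4.59 with shDBD and 4.69 and 4.85 with shTA, and did not pass (-0.23 ± 0.079, adjusted p = 0.0523). All 7 genes lay lower with shDBD without overlap, as did 28.0% of all genes. The median difference of the 7 was -0.468, and that of all genes 0.017. The MT1M difference passed with cyclic loess (-0.24, adjusted p = 0.0452), with the mean of all probe sets (0.0363) and without ΔNp63α replicate 3 (0.0457). With values under the 20th percentile raised to it, the difference was 0.005 (adjusted p = 0.975). It was -0.31 without shTA replicate 1, which leaves a single shTA array. The comparisons of both hairpins with the vector share the vector arrays. Of the basal markers 5 of 7 were lower with shDBD (summed 78.71 to 78.75, against 83.61 to 84.27 with shTA), of the luminal markers 4 of 8 were higher (67.48 to 68.11 and 64.5 to 65.18), and of the immune markers 2 of 7 were higher (48.93 to 49.0 and 47.04 to 47.16). Of the fibroblast markers 1 of 8 was higher (54.35 to 54.97 and 52.81 to 53.4), as was 1 of 8 endothelial and adipocyte markers (48.54 to 48.59 and 47.86 to 48.24). The part of these markers was not tested.

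With ΔNp63α, 6 of the 7 genes rose and 0 fell, and MT1M again did not pass (12.3% of all genes were called higher and 16.6% lower). The median log2 fold change of the 7 was 0.451, and that of all genes -0.00485. MT1F had levels of 14.01, 14.08 and 14.14 with ΔNp63α, against 13.27, 13.30 and 13.29 with the overexpression vector. Its rise was 0.79 ± 0.045 (SE, n = 3 per group, 1.734-fold, adjusted p = 2.99e-09), and 4.81% of all genes changed more in either direction.

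The same 6 genes were those that fell with shDBD. MT1G had 13.24, 13.26 and 13.32 with ΔNp63α against 12.63, 12.68 and 12.77 with the vector (0.58 ± 0.065, adjusted p = 6.33e-06). MT1X had 14.34, 14.44 and 14.30 against 13.77, 13.83 and 13.80 (0.56 ± 0.044, adjusted p = 1.48e-07). MT1H had 14.05, 14.07 and 14.11 with the isoform and 13.61, 13.60 and 13.66 with the vector (0.45 ± 0.043). Every ΔNp63α array lay above every vector array in these 3 genes. MT1E had 13.88, 13.92 and 13.96 with ΔNp63α and 13.51, 13.53 and 13.53 with the vector (0.39 ± 0.044). MT2A had 14.62, 14.66 and 14.66 with ΔNp63α and 14.31 on all 3 vector arrays (0.34 ± 0.035, adjusted p = 2.43e-06).

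MT2A lay close to the top of the scale. Its value was the highest of all probe sets on 4 arrays, the shTA and shRNA vector arrays, and array maxima were 14.539 to 14.742. The highest values of MT1X (14.44), MT1F (14.14), MT1E (14.12) and MT1H (14.11) were also near the top. Quantile normalization over all arrays gave 0.17 for MT2A with ΔNp63α in place of 0.34. The part of the ceiling in the size of the changes of these genes was not tested. MT1M, at the other end, had 5.18, 5.25 and 5.34 with ΔNp63α and 5.12, 5.11 and 5.03 with the vector (0.17 ± 0.064, adjusted p = 0.0614). It passed once every value under an array's 20th percentile was raised to it (0.14, adjusted p = 0.00499). That floor made the change smaller and replaced measured low values, so the pass is not stronger evidence of a rise. MT1M also passed with the mean of all probe sets (adjusted p = 0.0442) and without ΔNp63α replicate 1 (0.0447). It did not with quantile normalization or cyclic loess (adjusted p from 0.104 to 0.159). The arrays of all 7 genes lay higher with ΔNp63α without overlap, as did those of 16.3% of all genes. Of the basal markers 4 of 7 rose and 1 fell with ΔNp63α (summed 84.78 to 86.34, against 81.92 to 84.08 with the vector). Of the luminal markers 2 of 8 fell (58.16 to 59.15 and 59.86 to 60.44), as did 1 of 8 fibroblast and 1 of 7 immune markers. Of the endothelial and adipocyte markers 2 of 8 rose (42.86 to 43.44 and 42.0 to 42.6). Of all genes, 12.3% were called higher and 16.6% lower. The actin control measure averaged 0.1623 ± 0.0594 and 0.1699 ± 0.0579 (SD, n = 3 each). The part of the markers was not tested.

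**Figure D3:**
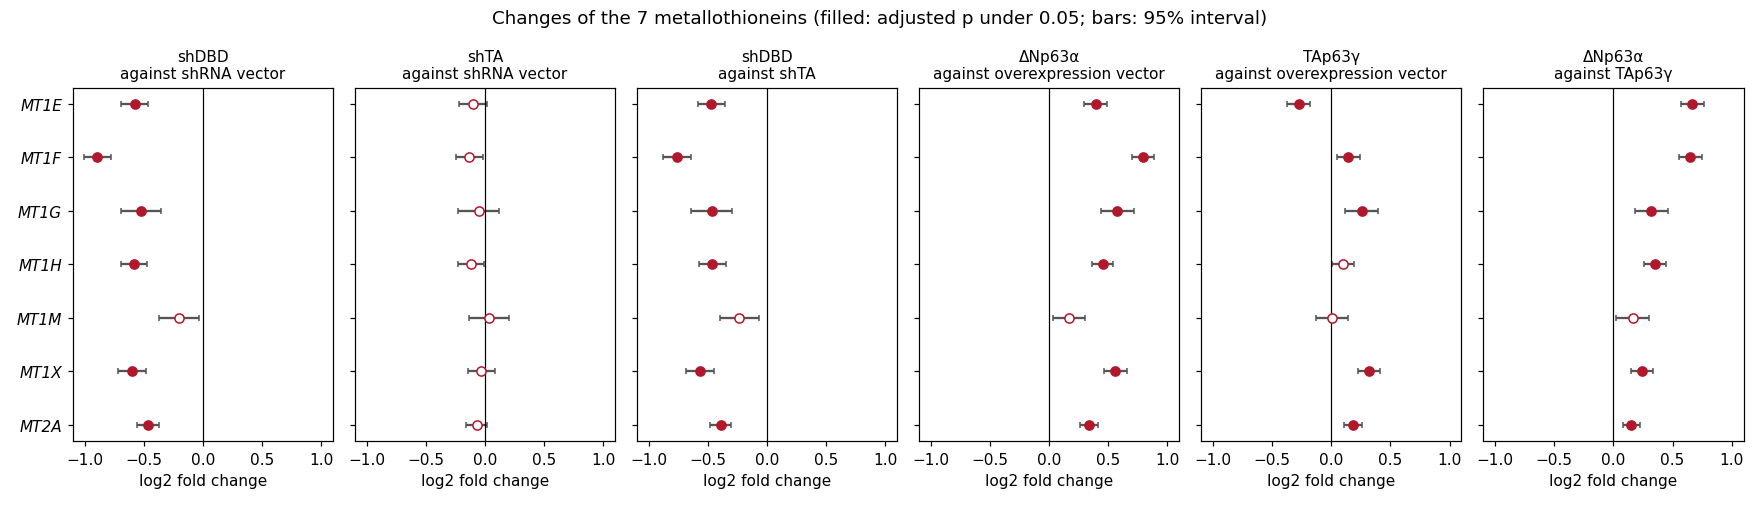
Log2 fold changes of the 7 metallothioneins in the 6 comparisons (x axis), with 95% intervals as bars; filled points passed at an adjusted p under 0.05 and open points did not. The called genes lie left of 0 for shDBD against the vector and right of 0 for ΔNp63α, none is filled for shTA, and MT1E alone is left of 0 for TAp63γ.

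By the probe sets used, TAp63γ moved the family unevenly: 4 of the 7 genes rose, 1 fell and 2 did not pass. Of all genes, 20.5% were called higher and 22.8% lower. Quantile normalization, the mean of all probe sets and each gene's dimmest probe set each gave 3 called genes. The median log2 fold change of the 7 was 0.144, and that of all genes -0.0232. MT1X had 14.13, 14.08 and 14.14 with TAp63γ and 13.77, 13.83 and 13.80 with the vector (0.32 ± 0.044, n = 3 per group, 1.246-fold, adjusted p = 2.41e-05). MT2A had 14.50, 14.49 and 14.50 with TAp63γ and 14.31 on each vector array (0.18 ± 0.035, adjusted p = 3.96e-04). MT1G had 13.02, 12.89 and 12.95 with the isoform and 12.63, 12.68 and 12.77 with the vector (0.26 ± 0.065, adjusted p = 0.00437). These 3 rises were separate from the vector arrays but small, and 36.4%, 50.6% and 41.8% of all genes changed more.

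MT1F had 13.44, 13.40 and 13.44 with TAp63γ against 13.27, 13.30 and 13.29 with the vector (0.14 ± 0.045, adjusted p = 0.0161). Its call was lost without overexpression vector replicate 1 (adjusted p = 0.0544), without TAp63γ replicate 3 (0.0557), without the variance trend (0.059) and with quantile normalization (0.173). That of MT1G was lost with quantile normalization (adjusted p = 0.0506). MT1H had 13.77, 13.67 and 13.72 with TAp63γ against 13.61, 13.60 and 13.66 with the vector and did not pass (0.10 ± 0.043, adjusted p = 0.0833), although its arrays did not overlap and it passed with cyclic loess (0.17, adjusted p = 0.00694). MT1M had 5.12, 5.06 and 5.10 with TAp63γ and 5.12, 5.11 and 5.03 with the vector (interval -0.13 to 0.14). In all, 5 of the 7 genes lay higher without overlap and 1 lower, beside 23.6% and 26.3% of all genes.

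MT1E went the other way. Its levels were 13.30, 13.24 and 13.21 with TAp63γ, against 13.51, 13.53 and 13.53 with the vector, so all TAp63γ arrays lay below the vector arrays. The fall was -0.28 ± 0.044 (1.211-fold, adjusted p = 8.28e-05), and -0.34 to -0.20 under both other scalings. A second probe set of the same gene did not show it: 216336_x_at had 13.33, 13.24 and 13.35 with TAp63γ and 13.23, 13.27 and 13.13 with the vector (0.10, interval -0.01 to 0.20, adjusted p = 0.155). The intervals of both MT1E probe sets (-0.37 to -0.18 for the one used) did not overlap, and both rose with ΔNp63α and fell with shDBD. For TAp63γ, 4 of 7 basal markers rose and 2 fell (summed 86.1 to 87.52, against 81.92 to 84.08 with the vector). Of 8 luminal markers 1 rose and 1 fell, of 7 immune markers 1 fell, and of 8 endothelial and adipocyte markers 1 rose. No fibroblast marker was called, and of all genes 20.5% were called higher and 22.8% lower. The actin control measure averaged 0.0772 ± 0.0664 against 0.1699 ± 0.0579 (SD, n = 3 each). The part of the markers and of the actin measure was not tested.

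Between the isoforms, 6 of the 7 genes were higher with ΔNp63α than with TAp63γ, and 0 were lower (19.2% of all genes were called higher and 20.6% lower). The differences were largest in MT1E (0.67 ± 0.044, adjusted p = 1.48e-08) and MT1F (0.65 ± 0.045, adjusted p = 2.48e-08). They were smaller in MT1H (0.35 ± 0.043), MT1G (0.32 ± 0.065) and MT1X (0.24 ± 0.044), and MT1G did not pass with the mean of both its probe sets (0.09, adjusted p = 0.367). MT2A differed by 0.15 ± 0.035 (adjusted p = 0.0024), a call that was lost with quantile normalization (0.06, adjusted p = 0.157) and cyclic loess (0.08, adjusted p = 0.0939). MT1M had 5.18, 5.25 and 5.34 with ΔNp63α and 5.12, 5.06 and 5.10 with TAp63γ, and did not pass (0.16 ± 0.064, adjusted p = 0.0568). It passed with low values raised to the 20th percentile (adjusted p = 0.00137), with the mean of all probe sets (0.041) and without ΔNp63α replicate 1 (0.0386). It did not with quantile normalization or cyclic loess (adjusted p from 0.154 to 0.195). All 7 genes lay higher with ΔNp63α without overlap, as did 22.6% of all genes, and the median difference was 0.32, against 0.0161 for all genes. Of the basal markers 2 of 7 were higher and 2 lower with ΔNp63α (summed 84.78 to 86.34, against 86.1 to 87.52 with TAp63γ), and of the luminal markers 2 of 8 were lower (58.16 to 59.15 and 59.4 to 60.2). Of the fibroblast markers 1 of 8 was higher and 1 lower, and of the immune markers 1 of 7 was higher. Of the endothelial and adipocyte markers 2 of 8 were higher and 1 lower. The part of these markers was not tested. Both isoforms were compared with the same vector arrays.

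Metallothionein transcripts resemble each other in sequence, and of the 7 probe sets used, 6 end in _x_at, the array maker's mark for probes that can match several transcripts. This ending was carried by 9 of the family's 11 probe sets, and by 9.67% of all probe sets with 1 symbol. The probe sets used were 212859_x_at for MT1E, 217165_x_at for MT1F, 204745_x_at for MT1G, 206461_x_at for MT1H, 217546_at for MT1M, 208581_x_at for MT1X and 212185_x_at for MT2A. The 6 genes that were called were those 6, so their values may not be independent measurements, and how much each probe set read of its neighbours' transcripts was not tested. Of the 2 probe sets without the ending, the one for MT1M and 210472_at for MT1G, limma called 0 in the 6 comparisons, and 4 of their 12 fits, all of MT1M, had an unadjusted p under 0.05. MT1G by 210472_at had 6.01 and 6.15 with shDBD and 5.93 and 5.90 with the vector (0.16, interval -0.10 to 0.43), the opposite sign from the probe set used. On the overexpression arrays, 210472_at lay below the 20th percentile in all 9.

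In 4 genes, a second probe set could be set beside the first. For MT1X, 204326_x_at had 13.38, 13.49 and 13.37 with ΔNp63α and 12.32, 12.29 and 12.24 with the vector, a rise of 1.13 ± 0.060 (adjusted p = 1.92e-09) against 0.56 ± 0.044 for the probe set used. With TAp63γ the same probe set of MT1X had 13.16, 13.14 and 13.22 (0.89 ± 0.060, adjusted p = 1.03e-08), against 0.32 ± 0.044. Both MT1X probe sets thus rose with each isoform, by amounts whose intervals did not overlap. With shDBD both fell, 204326_x_at by -0.52 and 208581_x_at by -0.60. For MT1F, 213629_x_at fell with shDBD (-0.74 ± 0.105), rose with ΔNp63α (0.69 ± 0.086) and rose with TAp63γ (0.52 ± 0.086, against 0.14 ± 0.045 for the probe set used, with intervals that did not overlap). Between the isoforms 213629_x_at did not pass (0.17, interval -0.01 to 0.36, adjusted p = 0.135), so the MT1F difference between them rests on 217165_x_at.

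**Figure D4:**
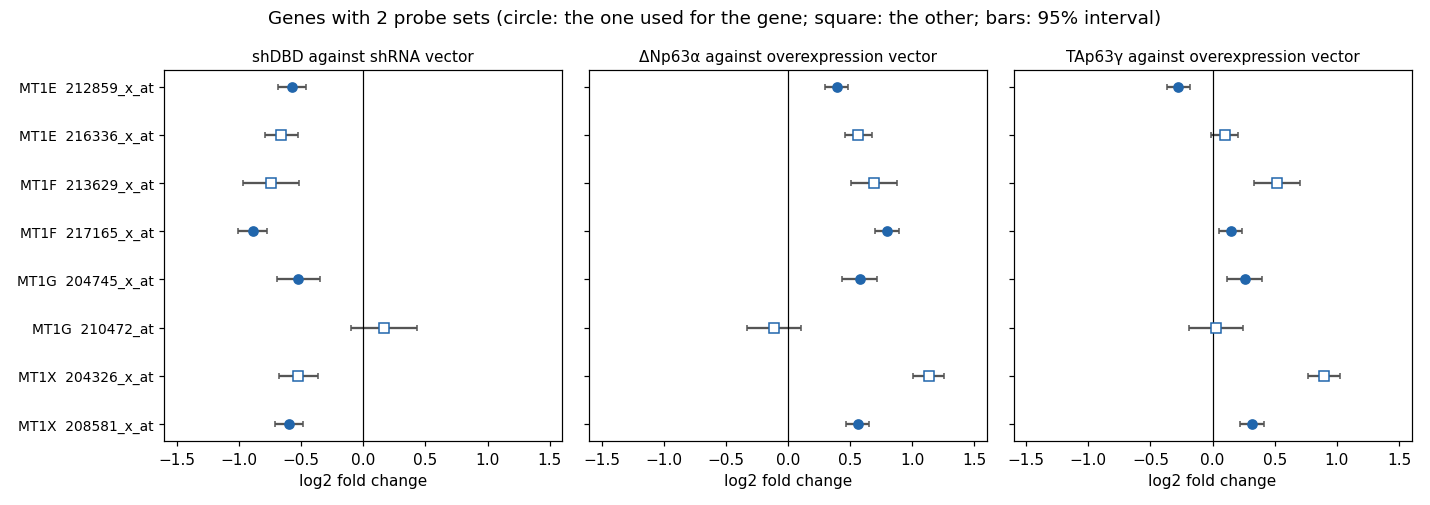
Log2 fold changes with 95% intervals for both probe sets of MT1E, MT1F, MT1G and MT1X in 3 comparisons; circles are the probe sets used and squares the others. With shDBD and ΔNp63α all but 210472_at lie on 1 side of 0, and with TAp63γ the MT1E probe sets lie at -0.28 and 0.10 and those of MT1X at 0.32 and 0.89.

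Of 7 further family members looked up, 3 were measured. MT1HL1, a gene related to MT1H outside the cluster, is read by another _x_at probe set. It had 13.85 and 13.76 with shDBD and 14.26 and 14.22 with the vector (-0.44 ± 0.054, adjusted p = 2.59e-05), and 14.38, 14.39 and 14.37 with ΔNp63α and 13.95, 13.93 and 13.99 with its vector (0.42 ± 0.044, adjusted p = 2.79e-06). MT3, known from brain, and MT4, known from stratified epithelium, passed in 0 of the 6 comparisons (1 of the 12 fits had an unadjusted p under 0.05). MT3 averaged 7.323 with shDBD and 7.432 with the vector, and 6.703 with ΔNp63α and 6.698 with its vector. MT4 averaged 6.509 and 6.754, and 6.159 and 6.016, in the same groups.

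Within the family, arm-centred values over the 15 arrays correlated at 0.991 for MT1F with MT1H and at 0.981 for MT1X with MT2A. These values come from the same arrays and may partly read the same transcripts, which was not tested. The lowest was 0.7, for MT1E with MT1X. The genes whose arm-centred values were most like the family's mean over the same arrays were MT1HL1 (Pearson's r = 0.987), DTL, part of a ubiquitin ligase (0.977), NCAPD3, a condensin subunit (0.972), PCLAF, which binds the replication clamp (0.97), IFT25 (0.966), MCM6, a helicase subunit (0.965), TK1, a thymidine kinase (0.963), CDCA4 (0.956), RRM1, a ribonucleotide reductase subunit (0.955), and EXO1, an exonuclease (0.954). DTL, for example, had log2 differences of -1.44 with shDBD, -0.12 with shTA, 1.12 with ΔNp63α and 0.08 with TAp63γ. The likeness is a description over arrays of 6 groups, and no test was made of it.

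Among 28 measured genes that handle zinc, copper and iron, 10 rose and 1 fell with shDBD (35.7% and 3.57%, beside 11.1% and 10.2% of all genes). With shTA 1 rose and 0 fell (3.57%, beside 2.29% of all genes called in either direction). With ΔNp63α 4 rose and 4 fell (14.3% each, beside 12.3% and 16.6%), and with TAp63γ 8 rose and 5 fell (28.6% and 17.9%, beside 20.5% and 22.8%), shares near those of all genes. The list's median was 0.0546 with shDBD, against -0.574 for the metallothioneins. MTF1, the factor that drives metallothionein genes and which was picked for that role after its values had been seen, rose with shDBD (0.51 ± 0.154, adjusted p = 0.0261) and with TAp63γ (0.37 ± 0.126, adjusted p = 0.024), and did not pass with ΔNp63α (-0.02 ± 0.126, adjusted p = 0.932).

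SLC30A1, the zinc exporter and itself a known target of MTF1, averaged 12.013 with shDBD and 11.135 with the vector (0.88 ± 0.211, adjusted p = 0.00686). It averaged 11.931 with ΔNp63α (-0.04 ± 0.172, adjusted p = 0.894) and 10.629 with TAp63γ, against 11.975 with the vector, and fell with TAp63γ (-1.35 ± 0.172, adjusted p = 9.64e-06). Its changes with shDBD and TAp63γ had signs opposite to those of most metallothioneins. The part of MTF1 or of zinc in any of these changes was not tested. SLC39A8, a zinc importer, rose with shDBD (2.822-fold, adjusted p = 4.47e-06), ΔNp63α (log2 change 0.56 ± 0.127) and TAp63γ (0.36 ± 0.127). SLC31A2, a copper transporter, rose with TAp63γ (1.66 ± 0.086, adjusted p = 4.15e-10) and ΔNp63α (0.43 ± 0.086). SOD1, the copper and zinc superoxide dismutase, passed in 0 comparisons with a vector, and its log2 differences were -0.12 with shDBD, 0.05 with shTA, 0.05 with ΔNp63α and 0.26 with TAp63γ.

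Among 16 metal and heat stress genes, 1 rose and 4 fell with shDBD (6.25% and 25.0%, beside 11.1% and 10.2% of all genes). With shTA 2 rose and 0 fell (12.5%, beside 2.29% of all genes called in either direction). With ΔNp63α 9 rose and 4 fell (56.2% and 25.0%, beside 12.3% and 16.6% of all genes). With TAp63γ 8 of the 16 rose, beside 20.5% of all genes, and 3 fell (18.8%, beside 22.8%). The small heat shock protein HSPB1 rose with ΔNp63α (1.66 ± 0.071, adjusted p = 1.06e-10) and TAp63γ (2.44 ± 0.071, adjusted p = 6.29e-13). The co-chaperone BAG3 rose with ΔNp63α (0.48 ± 0.098) and TAp63γ (1.40 ± 0.098). GCLC, which starts glutathione synthesis, fell with shDBD (-0.63 ± 0.104) and TAp63γ (-1.25 ± 0.085) and rose with shTA (0.46 ± 0.104) and ΔNp63α (0.24 ± 0.085). HSPA1L did not pass in any comparison with a vector, its log2 differences lying between 0.05 and 0.11. In the knockdown arm it averaged 5.694 with shDBD and 5.585 with the vector. These levels are close to the arrays' 20th percentile (5.375 to 5.421), so a change could be missed there.

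Of 13 genes known to answer glucocorticoids, either hairpin gave 4 that rose and 1 that fell (30.8% and 7.69%). Of all genes, 11.1% were called higher and 10.2% lower with shDBD, but only 2.29% in either direction with shTA. With ΔNp63α 4 rose and 6 fell (30.8% and 46.2%, beside 12.3% and 16.6% of all genes). With TAp63γ 3 rose and 8 fell (23.1% and 61.5%, beside 20.5% and 22.8%). FKBP5, a chaperone of the glucocorticoid receptor, fell with ΔNp63α (-0.77 ± 0.230, adjusted p = 0.0193) and TAp63γ (-1.37 ± 0.230, adjusted p = 1.39e-04). The transcription factor KLF9 rose with shDBD (1.23 ± 0.101) and fell with ΔNp63α (-0.31 ± 0.083) and TAp63γ (-1.71 ± 0.083). ANGPTL4, a lipoprotein lipase inhibitor, fell with shDBD (-1.03 ± 0.107) and shTA (-0.98 ± 0.107) and rose with ΔNp63α (1.92 ± 0.087) and TAp63γ (2.26 ± 0.087). CEBPD, another transcription factor of the list, did not pass in any comparison with a vector.

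**Figure D5:**
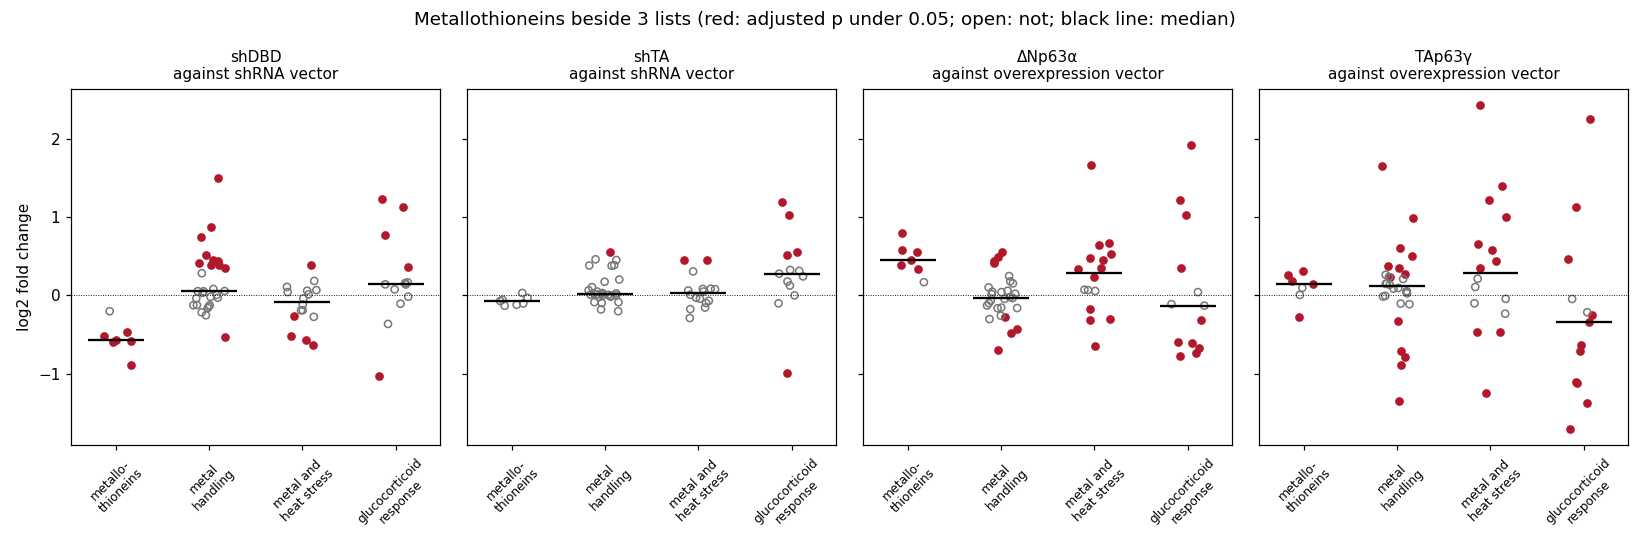
Log2 fold changes (y axis) of the metallothioneins and of the genes of 3 lists in the comparisons with a vector; red points passed at an adjusted p under 0.05, open points did not, and black lines are medians. The metallothioneins all lie below 0 with shDBD (-0.891 to -0.201, median -0.574) and above 0 with ΔNp63α (0.169 to 0.794, median 0.451). In both comparisons the lists hold red points on both sides of 0.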

How the data were processed

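Gene expression was measured on Affymetrix arrays in 15 samples of 6 groups. The deposited values are log2 expression levels of probe sets; the submitters' processing notes name RMA, without its version or which arrays the authors ran together. RMA equalizes array distributions and compresses low values. Of 22277 probe sets, 19064 had 1 symbol in the platform annotation, 1043 several, 2108 none listed and 62 were array controls; each of 11963 genes took its probe set with the highest mean. limma 3.58.1 in R 4.3.3 fitted 6 group means (9 residual and 5.87 prior degrees of freedom), with a variance trend, two-sided tests and Benjamini-Hochberg adjustment over all genes within a comparison at 0.05. The fit was tested on simulated data. Arrays have no read depth, and their number limits the precision.

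The genes, the lists and the tests were chosen with earlier results of these data known. Named from each list were up to 3 genes called against a vector (largest change) and 1 never called (highest mean), and the 10 genes most correlated with the family's arm-centred mean; MTF1 was added. Alternatives were separate arms, no variance trend, a replicate block, quantile and cyclic loess normalization, a low-value filter, a floor, other probe sets, and leaving out each array. Transcripts of the targeted gene and genomic positions of probes were not used here.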

Additional observations from a re-analysis of the deposited data

How the results depend on the processing

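Under other settings, 142 counts of called metallothioneins lay within 1.5 times of those reported and 8 did not. Several settings could alter only p-values: leaving out an array of the other arm, separate arms, no variance trend and the replicate block. A gene with a single probe set also keeps its fold change under other probe-set choices. Counts of unchanged results, here and below, were thus partly fixed in advance and do not measure stability. Leaving out 1 array gave 6 called genes for shDBD and 0 for shTA against the vector, 6 to 7 for shDBD against shTA, 6 to 7 for ΔNp63α, 4 to 5 for TAp63γ and 6 to 7 for ΔNp63α against TAp63γ. TAp63γ gave 3 called genes with quantile normalization over all arrays, with the mean of all probe sets and with each gene's dimmest probe set. Without probe sets ending in _x_at or _s_at, only MT1G and MT1M could be measured, and 0 were called in any comparison by limma (4 of 12 fits of these probe sets had an unadjusted p under 0.05). Of single-gene values, 966 kept direction and call. The call was gained by 13, nearly all of them of MT1M, and lost by 24, 15 of these with the same sign and 9 with the other. A further 11 changed sign without being called in either setting. MT1G changed sign with its other probe set, the one left under both of these probe-set choices: 0.1645 with shDBD, 0.02792 with shTA, 0.1366 for shDBD against shTA, -0.1126 with ΔNp63α and -0.1364 for ΔNp63α against TAp63γ. With the mean of its probe sets MT1G lost its call with shDBD (-0.1787, adjusted p = 0.211), for shDBD against shTA (-0.1659, adjusted p = 0.272), with TAp63γ (0.1402, adjusted p = 0.154) and for ΔNp63α against TAp63γ (0.0917, adjusted p = 0.367). MT1E with TAp63γ was 0.09636 by its dimmest probe set, and lost its call with the mean of both (-0.09013, adjusted p = 0.0984). MT1X with shTA was 0.01262 by the mean of its probe sets and 0.05581 by the dimmer one. MT1M with low values raised to the 20th percentile was 0.002862 with shDBD, -0.002077 with shTA, 0.00494 for shDBD against shTA and -0.02068 with TAp63γ. Without single arrays, MT1M ranged from -0.04783 to 0.1126 with shTA and from -0.02171 to 0.02382 with TAp63γ. The causes were not tested.

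Replicate numbers gave no consistent sign of pairing. Deviations of same-numbered arrays correlated at 0.00137, 0.00615 and 0.069 between knockdown groups, where 2 arrays per group give both replicate numbers the same value. In 9 overexpression pairs they correlated at -0.628 to 0.476, with 3 above 0.1, so this check does not settle whether arrays were paired. With the replicate number as a block, 6 metallothioneins were called with shDBD, 0 with shTA, 6 with ΔNp63α and 5 with TAp63γ, as without it. Over all genes, the calls with shTA were 150 with the block, 133 without _x_at and _s_at probe sets and 1064 with the arms fitted separately, against 274, and 87 to 472 when 1 array was left out. Those with shDBD were 1650 without shRNA vector replicate 1, against 2543. Those for shDBD against shTA were 3359 in separate fits per arm, 1348 when shDBD replicate 1 was left out and 1463 when shTA replicate 2 was, against 2197. Without _x_at and _s_at probe sets they were 1465 with shDBD, 1269 for shDBD against shTA, 2109 with ΔNp63α, 3256 with TAp63γ and 3008 for ΔNp63α against TAp63γ, against 2543, 2197, 3454, 5187 and 4762. MT2A lay near the array maximum, as did the highest values of some other members, and MT1M lay near background. The part of either in the size of their changes was not tested.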
